A study of Rattus norvegicus with 12 samples.

Results

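The genes described are those encoding 4 ligands and 2 receptors of the platelet-derived growth factor (PDGF) family, Pdgfa, Pdgfb, Pdgfc, Pdgfd, Pdgfra and Pdgfrb, together with the fibroblast growth factor (FGF) ligand Fgf2 and the receptors Fgfr1, Fgfr2 and Fgfr3. They were taken by name from the table of counts per gene, and all 10 were found among its 33294 genes. The counts come from poly(A) RNA of the rat line PAC1, which derives from smooth muscle of the pulmonary artery, with 12 libraries in 4 groups of 3. D1 cells were PAC1-D cells, kept in the more differentiated state by less frequent splitting, and were given a control siRNA. P cells were PAC1-P cells, kept in the more proliferative state by more frequent and thinner splitting, and were given the same control siRNA. RBPMS KD1 cells were PAC1-D cells given siRNA against Rbpms, and MBNL KD cells were PAC1-D cells given siRNAs against both Mbnl1 and Mbnl2, although their libraries are titled MBNL1 KD. All wells received 90 pmol of siRNA and a lipid reagent, so that no group is untransfected. Every culture is of this 1 established line.

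PDGF ligands are secreted dimers. Pdgfa and Pdgfb are processed inside the cell by proprotein convertases, whereas Pdgfc and Pdgfd carry a CUB domain that proteases remove outside the cell. They bind the receptor tyrosine kinases Pdgfra and Pdgfrb, and Pdgfrb is known as the receptor through which PDGF-BB drives division and migration of vascular smooth muscle cells. Fgf2 binds FGF receptors together with heparan sulfate and is a classical mitogen of the same cells, and both receptor families signal through Ras and the ERK kinases.

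Total counts were between 80842635 and 90771289 per library, with MBNL KD replicate 3 the lowest. That library also stood apart from the other MBNL KD libraries, with a chi-square per degree of freedom over genes of 12.8 and 12.9 against replicates 1 and 2, where the other 10 pairs of replicates lay between 3.68 and 7.72. Without it, Pdgfb, Pdgfd and Fgf2 differed in MBNL KD from D1 by 3.93, 2.03 and 1.06 on the log2 scale, and the members called in the comparisons with MBNL KD described below numbered 3, 4 and 6, as with it. Levels are given as scaled counts, which are counts divided by the library's TMM scaling factor, so that they compare libraries for 1 gene but not genes of different length. Fewer than 3 counts in a library were taken as no detection, a limit that reflects counting error alone. Even counts were between 2.03 and 2.30 times as frequent as neighbouring odd counts in every library, and the sources used here do not state how the mates of a read pair were counted. Every total also lay above the number of reads to which the methods subsampled the libraries, as it would with both mates counted. Counted so, the limit is 6 counts. Replicates are described as biological, and no pairing between groups is described. The targeted mRNAs were lower in the libraries so labelled: the mean of Rbpms was 3332 scaled counts in RBPMS KD1 against 13325 in D1, and Mbnl1 and Mbnl2 were at 23.8% and 29.6% of their D1 means in MBNL KD. Rbpms was also low in P, with a mean of 842. The 8 smooth muscle markers, among them Myh11 and Acta2, summed to between 870347 and 914855 scaled counts in the D1 libraries, 694962 and 705331 in MBNL KD, 433760 and 449217 in RBPMS KD1, and 18716 and 19888 in P. Acta2 and Tagln, with means of 446867 and 287969 in D1, made up most of the D1 sums. In MBNL KD none of the 8 was called. At an adjusted p under 0.05 in edgeR, 6 were lower there and 2 were higher, Myh11 (mean 6616 against 4563 in D1) and Cnn1 (1844 against 1701). Of the 7 endothelial markers, Cdh5, Emcn and Cldn5 were at 0 in every D1, RBPMS KD1 and MBNL KD library, and the list summed to between 67.0 and 72.4 scaled counts in the D1 libraries, 162 and 165 in RBPMS KD1, 83.2 and 128 in MBNL KD, and 488 and 602 in P, where Tek and Cdh5 made up most of it. The endothelial markers tested in RBPMS KD1, Tek and Vwf, were both called higher there, with means of 59.8 and 94.7 scaled counts against 23.9 and 40.6 in D1. The 6 proliferation markers summed to between 73224 and 74988 in D1, 89280 and 91697 in P, 60722 and 62563 in RBPMS KD1, and 49741 and 49964 in MBNL KD. Ptprc, the defining leukocyte marker, had at most 3.79 scaled counts in any library. The 6 leukocyte markers nevertheless summed to between 5158 and 5517 in D1, 4313 and 4505 in P, 7458 and 7679 in RBPMS KD1, and 4608 and 4887 in MBNL KD, nearly all of it Cd14, which had means of 5262 in D1 and 7535 in RBPMS KD1. The 7 fibroblast and pericyte markers summed to between 41032 and 42033 in D1, 39789 and 40783 in P, 42329 and 43282 in RBPMS KD1, and 43846 and 44657 in MBNL KD, most of it Cspg4. Within this list, Dcn had means of 1144, 1900, 1859 and 484 in the same groups and was called lower in MBNL KD. Abcc9 was called lower in P, with means of 77.1 in D1 and 17.0 in P. The part of these marker levels in the results below was not tested. In bulk RNA, fewer cells that express a gene and less RNA of it per cell cannot be told apart.

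Upstream sequence is shown for the members whose counts changed most between groups, so that the start regions of the genes that moved can be set side by side. RefSeq promoters (GRCr8 assembly, not the mRatBN7.2 assembly of the counts) were matched by symbol for 8 of the 10 members. The 250 bases before the annotated start are given 5′ to 3′ for the 5 matched members that were called changed against D1, namely Pdgfb (chr7:113438344-113438593, minus strand), Pdgfd (chr8:11773258-11773507, plus strand), Fgf2 (chr2:122164204-122164453, plus strand), Fgfr2 (chr1:194280915-194281164, minus strand) and Fgfr3 (chr14:81227210-81227459, minus strand). Capitals mark GC boxes (GGGCGG on either strand) and E boxes (CANNTG).
Pdgfb: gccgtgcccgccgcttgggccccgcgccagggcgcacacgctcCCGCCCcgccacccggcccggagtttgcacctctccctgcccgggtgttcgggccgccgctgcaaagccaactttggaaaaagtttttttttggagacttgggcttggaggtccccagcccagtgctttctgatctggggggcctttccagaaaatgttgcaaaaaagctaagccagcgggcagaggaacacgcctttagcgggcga
Pdgfd: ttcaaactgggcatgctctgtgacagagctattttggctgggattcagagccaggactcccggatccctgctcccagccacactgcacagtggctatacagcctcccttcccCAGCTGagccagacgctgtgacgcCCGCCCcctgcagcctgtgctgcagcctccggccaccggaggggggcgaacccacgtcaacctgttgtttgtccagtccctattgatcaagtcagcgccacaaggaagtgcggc
Fgf2: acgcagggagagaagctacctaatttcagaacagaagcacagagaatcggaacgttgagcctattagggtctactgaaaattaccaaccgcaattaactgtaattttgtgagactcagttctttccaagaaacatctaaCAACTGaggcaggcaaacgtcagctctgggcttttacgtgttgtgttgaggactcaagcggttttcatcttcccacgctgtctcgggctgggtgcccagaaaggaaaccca
Fgfr2: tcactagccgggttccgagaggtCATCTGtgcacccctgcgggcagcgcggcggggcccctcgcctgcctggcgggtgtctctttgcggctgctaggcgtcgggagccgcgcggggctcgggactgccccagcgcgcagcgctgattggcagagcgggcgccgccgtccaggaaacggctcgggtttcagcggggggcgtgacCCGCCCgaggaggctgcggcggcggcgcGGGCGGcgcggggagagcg
Fgfr3: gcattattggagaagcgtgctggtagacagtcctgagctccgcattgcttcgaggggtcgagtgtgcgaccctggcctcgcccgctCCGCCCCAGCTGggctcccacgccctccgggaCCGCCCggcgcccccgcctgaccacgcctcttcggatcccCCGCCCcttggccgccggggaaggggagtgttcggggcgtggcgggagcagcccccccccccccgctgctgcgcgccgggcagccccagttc
Fgfr3 had 3 GC boxes in this window, Fgfr2 had 2, and Pdgfb and Pdgfd had 1 each, and a GC box was present in 30.5% of all 33469 promoters searched over the same length. Pdgfd, Fgf2, Fgfr2 and Fgfr3 each had 1 E box, a motif present in 65.5% of all promoters. The letters of the TATA box (TATAAA), of the AP-1 site (TGANTCA) and of the CArG box were searched on both strands and were not found in these 5 windows. They were present in 12.9%, 6.34% and 1.5% of all promoters. GC content was 76.8% for Fgfr2, 74.4% for Fgfr3, 63.6% for Pdgfb, 61.6% for Pdgfd and 46.8% for Fgf2, against a median of 51.2%. Of these 5, Fgf2 alone lay below that median. A match is a description of the letters and not evidence of binding.

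Between P and D1 the growth factor genes moved in both directions, with a PDGF receptor, a pair of FGF receptors and Fgf2 lower and 2 PDGF ligands higher in P. Of the 10 members, 6 were called changed, meaning that the adjusted p was under 0.05 and the log2 fold change was above 1 or below -1. Pdgfrb, Fgf2, Fgfr2 and Fgfr3 were lower and Pdgfb and Pdgfd were higher, where 27.6% of all 16814 genes tested were called (16.4% higher and 11.2% lower). All 10 members had an adjusted p under 0.05 and library ranges that did not overlap, which 77.9% and 79.1% of all genes tested had. In RBPMS KD1 against D1, 2 of the 9 members tested were called, Pdgfd higher and Fgfr2 lower, with a background of 4.68% (3.06% higher and 1.62% lower). An adjusted p under 0.05 was found for 8 of the 9 and ranges that did not overlap for the same number, against 59.1% and 63.4% of all genes tested. In MBNL KD against D1, 3 of 10 were called, all higher, Pdgfb, Pdgfd and Fgf2, with a background of 10.2% (6.10% higher and 4.14% lower). There 9 members had an adjusted p under 0.05 and all 10 had ranges that did not overlap, against 67.5% and 70.3%. The median log2 fold change of the tested members was -0.21 in P, 0.18 in RBPMS KD1 and 0.29 in MBNL KD, and the medians of all genes tested were 0.020, 0.0043 and 0.0099. The 3 comparisons share the D1 libraries.

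**Figure D1:**
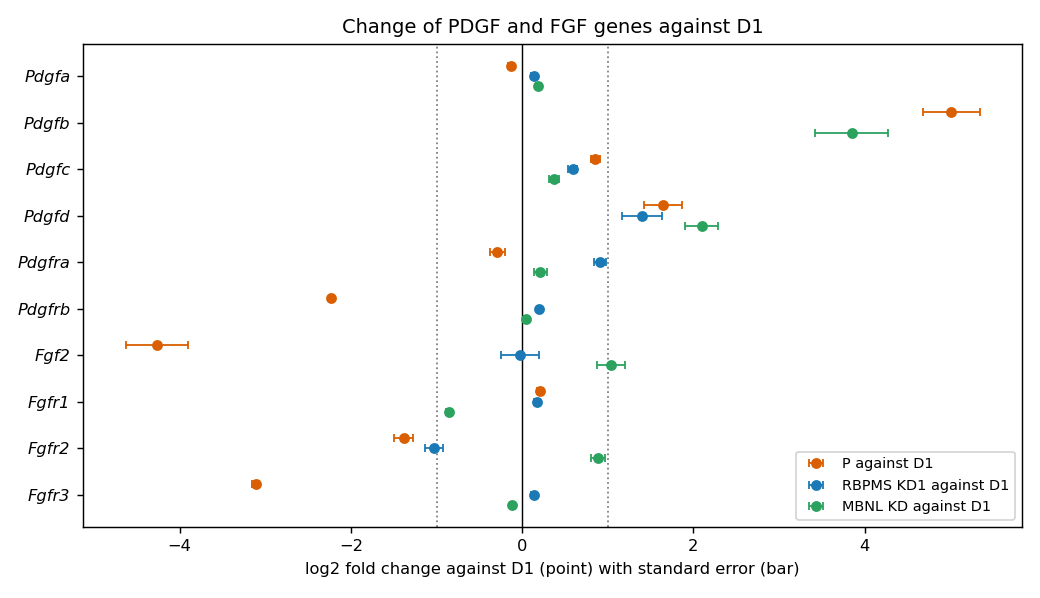
Log2 fold changes of the 10 members against D1 in P, RBPMS KD1 and MBNL KD, on the horizontal axis, as points with standard errors as bars. Dotted lines mark the fold threshold of 1 in each direction, past which Pdgfd lies in all 3 groups, and Pdgfb has no point for RBPMS KD1 because it did not pass the filter on low counts there.

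Pdgfb, which encodes the chain of the ligand PDGF-BB, was almost not detected in D1 and was clearly present in P. Its scaled counts were 2.04, 10.3 and 2.04 in the 3 D1 libraries and 158, 163 and 155 in P. The P libraries lay far above every D1 library, of which replicates 1 and 3 had 2 counts each, under the limit of 3. By the quasi-likelihood F test of edgeR, which is used for every adjusted p given here, P differed from D1 by 5.01 on the log2 scale (standard error 0.33, adjusted p = 2.6e-15), and the value was 6.19 without D1 replicate 2, a difference of 2.26-fold that rests on that library's 10 counts. In MBNL KD the libraries had 65.7, 83.1 and 62.4 scaled counts, all above D1 and all below P. Their log2 fold change against D1 was 3.85 (standard error 0.43, adjusted p = 3.5e-09), and 5.02 without D1 replicate 2. RBPMS KD1 libraries had 6, 4 and 12 counts, which overlapped D1, and Pdgfb did not pass the filter in that comparison. Without the filter its log2 fold change there was 0.61 (standard error 0.85, adjusted p = 0.61). The order of levels was therefore P, MBNL KD, and then RBPMS KD1 and D1, whose ranges overlapped. P exceeded MBNL KD by 1.13 on the log2 scale (standard error 0.17, adjusted p = 6.4e-07), and by 0.90 under quantile normalization, short of the fold threshold.

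Pdgfd, a ligand of Pdgfrb, had few counts but was higher than D1 in the other 3 groups. D1 had 34.7, 41.2 and 34.6 scaled counts, P had 108, 125 and 114, RBPMS KD1 had 75.6, 115 and 101, and MBNL KD had 148, 153 and 172. No library of the other groups fell within the D1 range, and MBNL KD was the highest group. The log2 fold changes against D1 were 1.64 in P, 1.40 in RBPMS KD1 and 2.10 in MBNL KD (standard errors 0.22, 0.24 and 0.20, adjusted p = 4.6e-08, 9.5e-06 and 9.0e-11). P and RBPMS KD1 overlapped and did not differ at this threshold, with a log2 difference of 0.22 (95% interval -0.14 to 0.58, adjusted p = 0.27), and the sign of that difference turned to -0.10 under quantile normalization. MBNL KD exceeded RBPMS KD1 by 0.69 (adjusted p = 0.00058). On the authors' normalised values, in which low genes are drawn towards a common minimum of 35, the log2 fold changes of Pdgfd against D1 were 0.74 in P and 0.81 in RBPMS KD1, and neither passed the fold threshold.

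Pdgfc, which like Pdgfd needs removal of its CUB domain and acts mainly through Pdgfra, was higher than D1 in the same 3 groups, without passing the fold threshold. D1 had 1158, 1310 and 1276 scaled counts, MBNL KD 1547, 1656 and 1636, RBPMS KD1 1880, 1914 and 1833, and P 2290, 2265 and 2236. The 4 groups did not overlap and stood in that order. Log2 fold changes against D1 were 0.85 in P, 0.59 in RBPMS KD1 and 0.37 in MBNL KD, with standard errors of 0.050, 0.052 and 0.055, and the largest adjusted p was 6.7e-07. RBPMS KD1 exceeded MBNL KD, with a log2 difference of MBNL KD from RBPMS KD1 of -0.22 (adjusted p = 0.00020), the opposite order to that of Pdgfd.

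Pdgfa, which encodes the chain of the ligand PDGF-AA, differed least among the ligands. Its means were 6783 ± 186 scaled counts in D1, 6196 ± 308 in P, 7454 ± 28.3 for RBPMS KD1 and 7704 ± 121 in MBNL KD (SD, n = 3 each). The log2 fold changes were -0.14, 0.14 and 0.19, each with an adjusted p under 0.05 and none past the fold threshold. RBPMS KD1 and MBNL KD were neighbours that did not differ at this threshold, with a log2 difference of 0.043 (95% interval -0.010 to 0.096, adjusted p = 0.16).

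**Figure D2:**
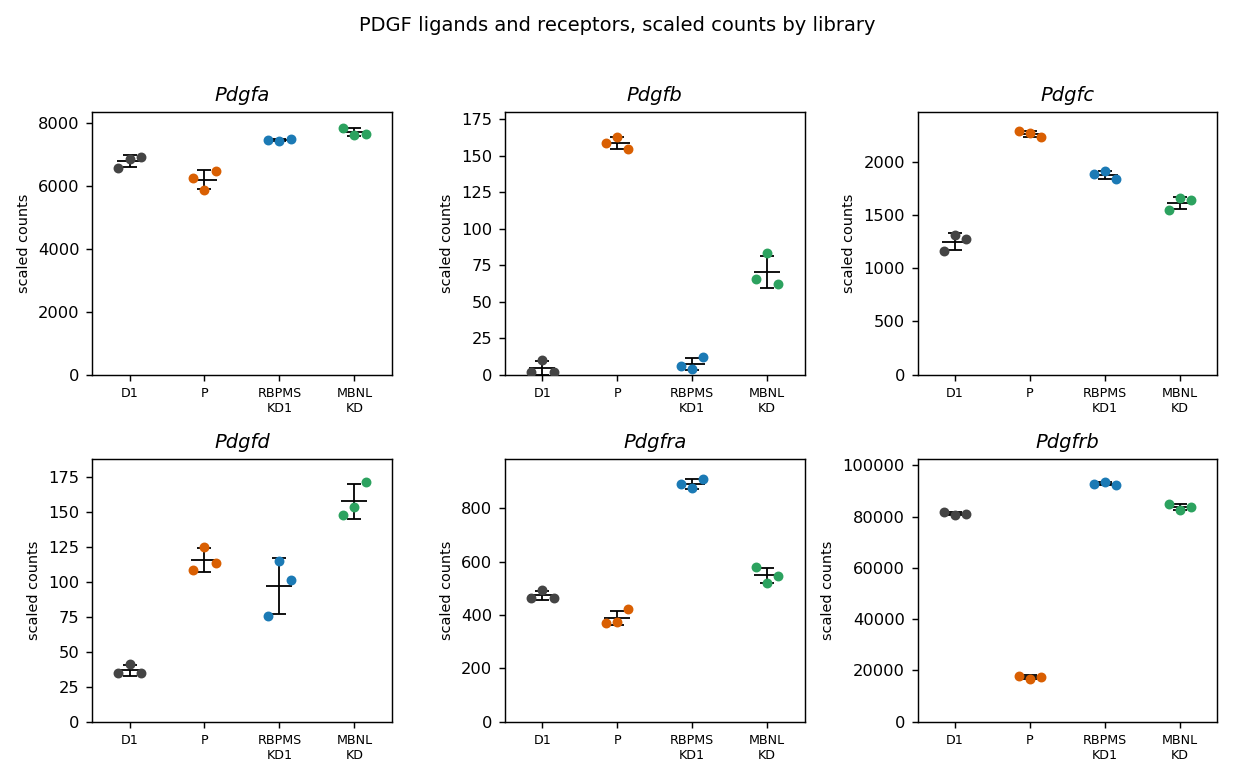
Scaled counts of the 4 PDGF ligands and 2 PDGF receptors in the 12 libraries, with 1 linear axis per gene starting at 0. Points are libraries, horizontal marks and bars are the mean and SD of 3 libraries, and the P libraries of Pdgfrb, between 16675 and 18014, lie far below the other 9.

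Pdgfrb was abundant in the 3 groups of PAC1-D cells and much lower in P. D1 had 81755, 80537 and 81135 scaled counts and P had 18014, 16675 and 17403, so that P was at 21.4% of the D1 mean. The log2 fold change was -2.23 (standard error 0.026, adjusted p = 1.7e-36), and no P library came near the range of the others. RBPMS KD1 had 92556, 93576 and 92384, a log2 change of 0.20 (standard error 0.023, adjusted p = 2.9e-08). MBNL KD had 84778, 82723 and 83630, all above the highest D1 library, yet the log2 difference of 0.046 (95% interval 0.0025 to 0.090, not adjusted) had an adjusted p of 0.068. The knockdown of Rbpms thus left Pdgfrb at 114% of the D1 mean, and P was lower than RBPMS KD1 by a log2 change of -2.45 (adjusted p = 1.7e-37).

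Pdgfra, the receptor that binds PDGF-AA and PDGF-CC, was highest in RBPMS KD1. It had 464, 494 and 466 scaled counts in D1 and 890, 875 and 910 in RBPMS KD1, at 188% of the D1 mean. The log2 fold change was 0.91 (standard error 0.069, adjusted p = 2.9e-12), short of the fold threshold. MBNL KD was between them with 579, 521 and 547, a log2 change of 0.21 (adjusted p = 0.020). P was lowest with 371, 375 and 421, a log2 change of -0.29 (adjusted p = 0.0030). The 4 groups did not overlap, and P was lower than RBPMS KD1 by a log2 change of -1.23 (standard error 0.075, adjusted p = 1.8e-16). The ratio of Pdgfra to Pdgfrb counts within a library, in which gene length is the same in every group, was 0.00585 ± 0.00025 in D1, 0.00961 ± 0.00025 for RBPMS KD1 libraries, 0.00656 ± 0.00027 for MBNL KD and 0.0224 ± 0.0018 for P (SD, n = 3 each). It was highest in P, where Pdgfrb fell further than Pdgfra, and the groups did not overlap. This ratio and those below were chosen after the levels had been seen, and they were not tested.

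Fgf2 was nearly lost in P and raised in MBNL KD. D1 had 113, 89.7 and 76.4 scaled counts and P had 3.77, 3.79 and 6.64, or 4, 4 and 7 counts. These are above a limit of 3 counts, but 2 of the 3 libraries are under a limit of 6. P was at 5.09% of the D1 mean, with a log2 change of -4.27 (standard error 0.36, adjusted p = 1.6e-12), or -4.16 with all counts halved, and its size is uncertain at such counts. RBPMS KD1 had 72.6, 75.9 and 126, spanning the D1 range, and the log2 difference was -0.022 (95% interval -0.45 to 0.41, adjusted p = 0.94). MBNL KD had 209, 180 and 185, above every D1 and every RBPMS KD1 library. Its log2 fold change against D1 was 1.04 (standard error 0.16, adjusted p = 1.5e-06), close to the threshold, and it was 0.97 without MBNL KD replicate 1, 0.91 without D1 replicate 3 and 0.87 under quantile normalization, so that the call but not the direction depended on them. Nudt6, a gene that overlaps Fgf2 and is transcribed antisense to it, had 474 ± 2.73 scaled counts in D1, 410 ± 12.3 in P, 479 ± 23.6 in RBPMS KD1 (SD, n = 3), and between 748 and 769 in the MBNL KD libraries. Its log2 fold change in MBNL KD was 0.69 (adjusted p = 9.3e-10). The library kit named in the labels keeps strand, but the strand setting of the counting is not stated, so reads of the overlap may have been counted for either gene, and the part of Nudt6 in the Fgf2 values was not tested.

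Fgfr3, like Pdgfrb, was much lower in P and moved little in the knockdowns. D1 had 9535, 9778 and 9573 scaled counts and P had 1099, 1150 and 1099, at 11.6% of the D1 mean. The log2 fold change was -3.11 (standard error 0.035, adjusted p = 5.5e-37). RBPMS KD1 had 10599, 10749 and 10361, all above D1, and MBNL KD had 8917, 9068 and 8616, all below D1. These shifts were small, with log2 fold changes of 0.14 and -0.12 (adjusted p = 8.1e-05 and 0.00017), and MBNL KD was lower than RBPMS KD1 by a log2 change of -0.26 (adjusted p = 6.5e-10).

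Fgfr2 was lower in P and in RBPMS KD1 and higher in MBNL KD. D1 had 392, 432 and 393 scaled counts, P had 148, 163 and 157, RBPMS KD1 had 203, 166 and 226, and MBNL KD had 831, 684 and 732. None of the 4 ranges overlapped, and the lowest RBPMS KD1 library, replicate 2, lay just above the highest P library. Log2 fold changes against D1 were -1.38 in P, -1.03 in RBPMS KD1 and 0.89 in MBNL KD (standard errors 0.11, 0.11 and 0.083, adjusted p = 3.3e-13, 4.2e-09 and 8.8e-11). The value in RBPMS KD1 was at the fold threshold, and fell short of it at -0.92 without RBPMS KD1 replicate 2, at -0.98 without D1 replicate 2 and at -0.95 on the authors' normalised values. P was below RBPMS KD1 by a log2 change of -0.38 (standard error 0.14, adjusted p = 0.016).

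Fgfr1 was lowest in MBNL KD, where Fgfr2 was highest. D1 had 3471, 3386 and 3510 scaled counts and MBNL KD had 1990, 1861 and 1878, at 55.3% of the D1 mean. The log2 fold change was -0.85 (standard error 0.040, adjusted p = 1.3e-17), not past the fold threshold. RBPMS KD1 had 4042, 3793 and 3876 and P had 4047, 4081 and 3905, both above D1 with log2 fold changes of 0.18 and 0.21. RBPMS KD1 and P overlapped, and their log2 difference was 0.0096 (95% interval -0.062 to 0.081, adjusted p = 0.82). The ratio of Fgfr3 to Fgfr1 counts was 2.79 ± 0.088 in D1, 2.71 ± 0.11 for RBPMS KD1 libraries, 4.65 ± 0.20 for MBNL KD and 0.278 ± 0.0058 for P, and the ratio of Fgfr2 to Fgfr1 counts was 0.117 ± 0.0087, 0.0508 ± 0.0074, 0.392 ± 0.025 and 0.0389 ± 0.0020 in the same groups (SD, n = 3 each). Both ratios were highest in MBNL KD, where Fgfr1 was lower than in D1, Fgfr2 was higher and Fgfr3 was slightly lower, and both were lowest in P. RBPMS KD1 overlapped D1 in the ratio of Fgfr3 to Fgfr1.

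**Figure D3:**
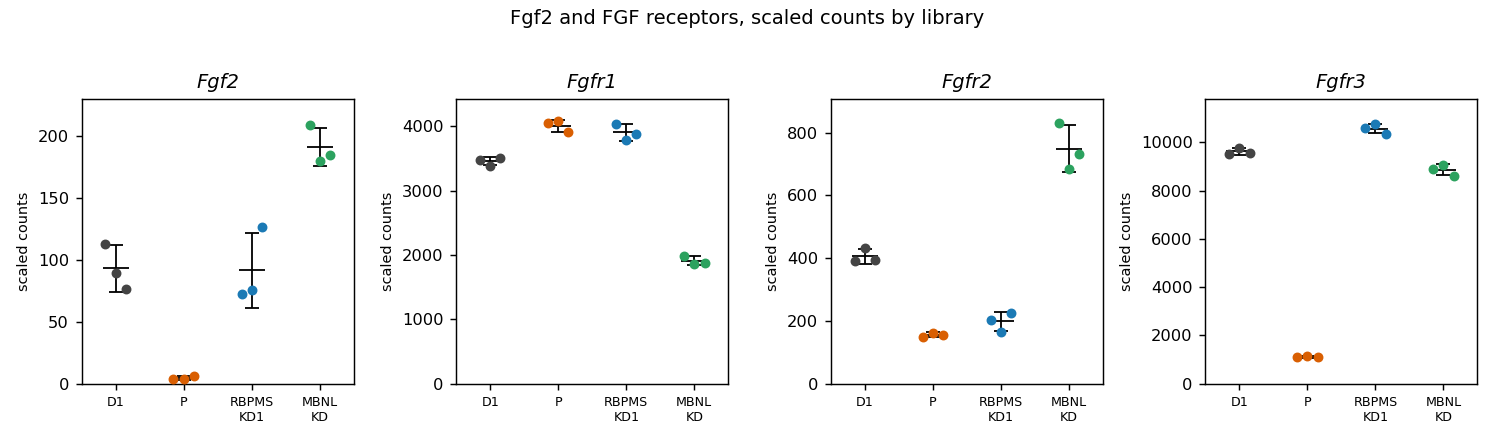
Scaled counts of Fgf2 and 3 FGF receptors in the 12 libraries, with 1 linear axis per gene starting at 0. Points are libraries, horizontal marks and bars are the mean and SD of 3 libraries, and MBNL KD is the highest group for Fgf2 and Fgfr2 and the lowest for Fgfr1.

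The 2 knockdowns were compared directly, which asks whether they differed from each other without use of the D1 libraries. Of the 10 members, 4 were called, with Pdgfb, Fgf2 and Fgfr2 higher and Fgfr1 lower in MBNL KD, where 11.9% of all genes tested were called (5.88% higher and 6.03% lower). The largest of these differences was that of Pdgfb, with a log2 change of 3.23 (standard error 0.37, adjusted p = 4.7e-09). Fgfr2 differed by 1.91 (standard error 0.10, adjusted p = 1.6e-16), Fgf2 by 1.06 (standard error 0.18, adjusted p = 4.2e-06) and Fgfr1 by -1.04 (standard error 0.041, adjusted p = 9.8e-20). Under quantile normalization Fgf2 and Fgfr1 fell just short of the fold threshold, at 0.99 and -0.98, and Fgf2 did so at 0.98, 0.91 and 0.92 without MBNL KD replicate 1, RBPMS KD1 replicate 1 and RBPMS KD1 replicate 2. An adjusted p under 0.05 was found for 9 members, against 69.5% of all genes tested. Pdgfra was lower in MBNL KD than in RBPMS KD1, with a log2 change of -0.70 (standard error 0.070, adjusted p = 2.5e-10). P was also compared with each knockdown. Against RBPMS KD1, 5 members were called, Pdgfb higher and Pdgfra, Pdgfrb, Fgf2 and Fgfr3 lower in P, with a background of 29.1% (16.1% higher and 13.0% lower). Against MBNL KD, 6 were called, Pdgfb and Fgfr1 higher and Pdgfrb, Fgf2, Fgfr2 and Fgfr3 lower in P, with a background of 32.9% (17.9% higher). An adjusted p under 0.05 was found for 8 members against RBPMS KD1 and for all 10 against MBNL KD, where 79.4% and 81.5% of all genes tested had one.

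For the 3 members with the widest range of group means and at least 100 scaled counts on average, Fgfr3, Pdgfrb and Fgfr2, the genes with the most similar pattern over the 12 libraries were sought among 11549 genes, by Pearson's r of log2 scaled counts plus 1. The libraries form 4 groups, so these values mostly describe the group means. Fgfr3 was closest to Myo7a, Col4a2 and Polr1a (r = 0.999 for each). Col4a2, a chain of basement membrane collagen IV, had means of 93224 scaled counts in D1 and 13555 in P. Pdgfrb was closest to Cpe, which encodes carboxypeptidase E, to Mmp19, a matrix metalloproteinase, and to Whrn, with r of 1.00, 0.999 and 0.999. Cpe had means of 44815, 7312, 53312 and 47420 scaled counts in D1, P, RBPMS KD1 and MBNL KD, the same order of groups as Pdgfrb. Fgfr2 was closest to B3galt6, Aff4 and Rnf10, with r of 0.994, 0.991 and 0.989. B3galt6, a galactosyltransferase that builds the linker by which heparan and chondroitin sulfate are attached to proteoglycans, ranged from 1049 in P to 1693 in MBNL KD, a smaller span than that of Fgfr2.

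The rest of the PDGF and FGF pathways was examined through 7 further lists with 105 genes, of which 104 were in the table of counts. In P against D1, 84 of them were tested and 28 were called, 15 higher and 13 lower, a share of 33.3% beside the background of 27.6%. In MBNL KD against D1, 80 were tested and 10 were called, 4 higher and 6 lower, a share of 12.5% beside 10.2%. In RBPMS KD1 against D1, 0 of the 80 tested were called by edgeR and 0 by DESeq2, beside a background of 4.68%. Of these 80, 61 had an unadjusted and 56 an adjusted p under 0.05 in edgeR. Such an adjusted p was found for 59.1% of all genes tested. The shares in P and MBNL KD were near the background. The same backgrounds, 27.6% in P and 10.2% in MBNL KD, stand beside the counts for each list below, which were not tested against them.

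Among the other FGF ligands, 8 of 21 were tested in P against D1, and 3 were called higher and 2 lower. Fgf14, an intracellular FGF that binds sodium channels, fell from 259 to 65.3 mean scaled counts in P, or by 1.99 on the log2 scale (standard error 0.16). In MBNL KD Fgf13, another of these intracellular FGFs, rose from 37.5 to 108, or by 1.53 on the log2 scale (standard error 0.23). The other genes called, Fgf7 in both comparisons and Fgf12, Fgf13 and Fgf18 in P, had a mean under 100 scaled counts in their higher group.

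Among the other FGF receptors and coreceptors, 14 were tested in P, and 5 were called higher and 3 lower. Syndecans, which carry heparan sulfate, were among those called in each direction. Sdc4, a syndecan of focal adhesions, rose from 9067 to 40518 mean scaled counts (log2 fold change 2.15, standard error 0.025), whereas Sdc3 fell from 38029 to 5294 (log2 fold change -2.85, standard error 0.027) and Sdc2 from 39767 to 9007 (log2 fold change -2.15, standard error 0.026). Fgfr4, the remaining FGF receptor kinase, had 54, 57 and 78 counts in P and 4, 0 and 0 in D1. In MBNL KD only Nrp1, a coreceptor for VEGF and other growth factors, was called among the 12 tested. It fell from 25438 to 12360 mean scaled counts (log2 fold change -1.04, standard error 0.026). In P its mean was lower still, 6994, or 27.5% of the D1 mean.

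Among the enzymes that can process PDGF precursors, Pcsk6 did not reach the limit of 3 counts in any PAC1-D library and was abundant in P. It had 0, 0 and 2 counts in D1, 0 in all RBPMS KD1 and MBNL KD libraries, and 2463, 2806 and 2723 counts in P. Pcsk5, a related convertase, fell from 556 to 159 mean scaled counts in P, and St14, the protease matriptase, rose from 50.1 to 157, changes of -1.81 and 1.64 on the log2 scale (standard errors 0.11 and 0.19). In MBNL KD none of the 5 tested was called by edgeR.

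Among the related receptors and ligands, 1 of 9 tested was called higher and 3 lower in P. Kitlg, the ligand of the class III receptor Kit, rose from 651 to 3274 mean scaled counts, and Vegfd and Pgf, both of the VEGF family, fell from 1099 to 219 and from 2932 to 736. Kitlg and Vegfd changed by 2.32 and -2.33 on the log2 scale (standard errors 0.052 and 0.093). In MBNL KD, Csf1, the ligand of Csf1r, had 9177, 9316 and 9304 scaled counts against 23747, 22332 and 23642 in D1, a log2 change of -1.33 (standard error 0.026, adjusted p = 7.8e-27). In RBPMS KD1 it had between 38902 and 38996, a log2 change of 0.75 (adjusted p = 1.0e-19), and the direct log2 difference of MBNL KD from RBPMS KD1 was -2.08 (standard error 0.027).

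All 32 intracellular adaptors and effectors were tested in MBNL KD and 3 were called, each lower, among them Nras and Mapk3. Of all genes tested there, 10.2% were called and 4.14% were called lower. The other genes of the 7 lists called lower in MBNL KD were Csf1, Nrp1 and Il17rd. Nras, a Ras GTPase, had 4635, 4592 and 4417 scaled counts in MBNL KD against 13378, 12978 and 13280 in D1, a log2 change of -1.54 (standard error 0.026, adjusted p = 2.9e-28). Mapk3, which encodes ERK1, had 4290, 4249 and 4171 against 11676, 11328 and 11522, a log2 change of -1.44 (standard error 0.027, adjusted p = 1.3e-27). For both genes every MBNL KD library lay far under the lowest D1 library. The log2 fold changes of Nras and Mapk3 in RBPMS KD1 were -0.50 and 0.31 (adjusted p = 6.2e-15 and 3.6e-11), and those in P were -0.039 and 0.097 (adjusted p = 0.17 and 0.0010). In P the genes called were Fyn and Pik3cb, higher by 1.29 and 1.20 on the log2 scale, and Nck2, lower with a log2 change of -1.28.

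Feedback inhibitors of receptor tyrosine kinase signalling also moved in both directions in P, with 2 of 12 tested called higher and 3 lower. Spry4 fell from 2739 to 383 mean scaled counts (log2 fold change -2.84, standard error 0.056), while Dusp5, a nuclear ERK phosphatase, rose from 389 to 1975 (log2 fold change 2.34, standard error 0.064). Sulf2, an enzyme that removes sulfate groups from heparan sulfate, rose from 21278 to 92632 (log2 fold change 2.12, standard error 0.026). Among the 3 ETS factors that are textbook targets of FGF and ERK signalling, Etv4 was called in MBNL KD. Its scaled counts were 1251, 1205 and 1129 there against 340, 268 and 322 in D1, a log2 change of 1.95 (standard error 0.079, adjusted p = 3.5e-19). In RBPMS KD1 it had 292, 296 and 315, within the D1 range, with a log2 difference of -0.040 (adjusted p = 0.77), and in P it had 618, 649 and 556, higher by 0.97 and short of the fold threshold. The other genes called in MBNL KD, Csf1r higher and Il17rd lower, had means under 100 scaled counts.

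**Figure D4:**
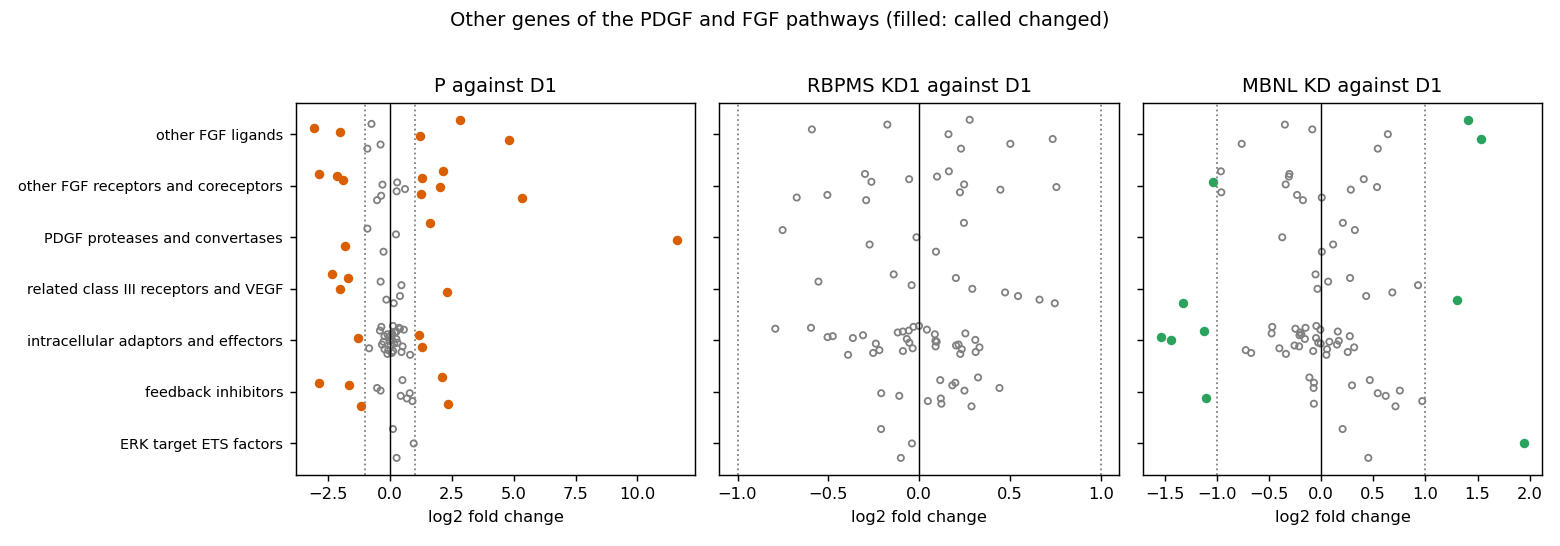
Log2 fold changes against D1 of the other tested genes of the PDGF and FGF pathways, by list, in P, RBPMS KD1 and MBNL KD, with a separate horizontal scale in each panel. Filled points are genes called changed and dotted lines mark the fold threshold, past which 28 genes lie in P, 10 in MBNL KD and none in RBPMS KD1 by edgeR.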

How the data were processed

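The deposited counts are raw counts per gene symbol. Per the methods, the authors subsampled paired reads with seqtk, aligned them to mRatBN7.2 with STAR 2.7.11b and counted them with featureCounts and the RefSeq annotation. The strand setting and the counting of mates are not given in the sources used here. In every library even counts were between 2.03 and 2.30 times as frequent as neighbouring odd counts. Total counts lay above the number of reads to which the libraries were subsampled, as they would with both mates counted. The authors' second deposited file holds normalised signal values after noisyR and quantile normalization, with a minimum of 35, and was used only as an alternative.

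Counts were fitted over all genes in R 4.3.3 with edgeR 4.0.16 (filterByExpr, TMM, quasi-likelihood F test) on the 6 libraries of each comparison, with no replicate block and Benjamini-Hochberg adjustment. The standard error was taken as the size of the estimate over the root of its F statistic, and 95% intervals assume normality. DESeq2 1.42.0 and limma 3.58.1 served as alternatives, as did omitting the low-count filter, scaling by quantiles or by the size factors of DESeq2, a joint fit of the 12 libraries, a replicate block, halved counts, dropping the fold threshold, and omitting single libraries in turn. On counts simulated for P against D1 with 16814 genes, 181 of 200 genes changed 2.5-fold and 188 of 200 changed 4-fold were called. Replicate pairs differed by more than sampling noise, most of all those with MBNL KD replicate 3, which also had the ratio of 2.30. Genes named are the 10 members, the siRNA targets, up to 3 called genes per pathway list and comparison with at least 100 scaled counts, and 3 genes of most similar pattern per chosen member. Fgf7, Fgf12, Fgf18, Fgfr4, Csf1r, Il17rd, marker genes, and Nudt6, which overlaps Fgf2 in RefSeq, were named after their values were seen. The values of 1 further gene of the lists are not reported here. Members and lists were chosen with earlier results of these data known.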

Additional observations from a re-analysis of the deposited data

Results flagged for a closer look

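Fgfr1 and Fgfr2 differed between the 2 knockdowns in opposite directions. Every RBPMS KD1 library was above D1 for Fgfr1 and below D1 for Fgfr2, and every MBNL KD library was on the other side. The direct comparison of MBNL KD with RBPMS KD1 gave log2 fold changes of -1.04 for Fgfr1 and 1.91 for Fgfr2 (adjusted p = 9.8e-20 and 1.6e-16, edgeR's quasi-likelihood test).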

How the results depend on the processing

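With no fold threshold the members called were 10 in P, 8 in RBPMS KD1 and 9 in MBNL KD against D1, 9 between the knockdowns, and 8 and 10 in P against RBPMS KD1 and MBNL KD, where between 59.1% and 81.5% of all genes tested passed. Limma on the authors' normalised values called 0 members in RBPMS KD1 against D1, where 8 had an unadjusted p under 0.05 and DESeq2 on counts called 2, and it called 2 between the knockdowns, as did quantile normalization. Leaving out each library gave 6 members throughout for P against D1, 1 to 2 for RBPMS KD1, 2 to 3 for MBNL KD, 3 to 4 between the knockdowns, and 5 and 6 for P against the knockdowns. The members called between the knockdowns were 3 without MBNL KD replicate 1 or RBPMS KD1 replicate 1 or 2, where Fgf2 was not called. With all counts halved, as for read pairs, 6, 2 and 3 members were called against D1 and 4, 5 and 6 in the other comparisons, the numbers found without halving. Signs turned only for differences that did not pass the test: Fgf2 in RBPMS KD1 against D1 ranged from -0.32 to 0.14 on the log2 scale as libraries were left out, Fgfr1 in P against RBPMS KD1 from -0.0081 to 0.037, and Pdgfd in the latter comparison was -0.10 under quantile normalization and -0.068 by limma.

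Replicate numbers carried no shared deviation (correlations from -0.034 to 0.017 over 17511 genes, and 0 of 12 libraries closest to their own number in all other groups). With the replicate number as a block, 6, 2 and 3 members were called in P, RBPMS KD1 and MBNL KD against D1, and 4, 5 and 6 in the other comparisons, the numbers found without it. Quantile normalization moved the share of higher genes among all genes called from 59.4% to 45.8% in P and from 65.4% to 54.3% in RBPMS KD1, while the members called higher and lower there numbered 2 and 4, and 1 and 1, under both scalings. Counting depth limits Pdgfb in D1 and RBPMS KD1 and Fgf2 in P, where libraries had between 2 and 12 counts.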
